A study of Homo sapiens with 18 samples.

Results

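The comparison was of THP1 cells after 24 h of IACS with THP1 cells after 8 h of IACS. Its members are 6 of the 18 RNA sequencing libraries of the study, chosen by their labels alone: the 3 libraries of each treatment time in this cell line. THP1 (written THP-1 in the labels) is an established monocytic acute myeloid leukemia (AML) line with a *KMT2A* rearrangement. IACS-010759 (IACS) is a small molecule that blocks complex I of the mitochondrial respiratory chain, and all 6 cultures received it at 50 nM. The study treated THP1 and MV4-11, another AML line, with IACS for 8 h or 24 h or with the vehicle DMSO, and sequenced 3 libraries of each group. The labels call the 3 libraries of a group independent replicates. The question put here is which transcripts differ between the early and the late time of the treatment. No DMSO library entered the fit. The time of the DMSO cultures is not given in the sources used here, so time in the drug and time in culture cannot be told apart. THP1 is 1 cell line, and in bulk RNA fewer cells of a kind and less RNA per cell cannot be told apart either.

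Complex I passes electrons from NADH into the respiratory chain. When it is blocked, mitochondria signal through OMA1, DELE1 and the kinase HRI to eIF2α, and the transcription factor ATF4 then switches on genes for amino acid synthesis and stress, a program called the integrated stress response (ISR). Several neighbouring programs read the state of the cell as well. SREBP transcription factors switch on cholesterol and fatty acid genes when membrane sterols are low, and INSIG proteins hold them back. MondoA drives *TXNIP* and *ARRDC4* when sugar phosphates are plentiful, and iron regulatory proteins bind the mRNAs of *TFRC* and *FTH1* according to the iron supply.

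The values are TPM (reads divided by gene length and set to the same sum in every library), rescaled here by the median of ratios so that the typical gene has the same level in each library. They are called rescaled TPM below. Of 45372 gene symbols, 13853 averaged 1 TPM or more in these 6 libraries and were tested by limma on log2(rescaled TPM + 1) with the replicate number as a block. Fold changes are 24 h over 8 h on that scale, on which changes of low genes are understated. A gene is named as called when its adjusted p was under 0.05 and its change beyond 1.5-fold. Whole reads recovered from the TPM summed to 20817392 to 25436125 per library at 8 h and 19958609 to 24606092 at 24 h. Of 10 markers of monocytic AML cells, 8 had a mean of at least 1 TPM, *LYZ* (613 to 918 TPM as deposited) and *SPI1* (85.6 to 126) among them, while *CD14* (0.197 to 0.394) and *MEIS1* (at most 0.020) were near 0. The summed level of the 10 markers, most of it *LYZ*, was 1051 to 1217 TPM as deposited at 8 h and 917 to 1064 at 24 h. Of the 24 markers of lymphoid, erythroid and stromal cells, 2 reached that mean, *NKG7* (at most 12 TPM) and *PECAM1* (53.9 to 63.3).

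At 24 h, 76 genes were called higher (0.549% of the genes tested) and 54 lower (0.39%). By the adjusted p alone, 420 genes were higher (3.03%) and 679 lower (4.9%). The share of higher genes among these was 38.2%, against 49.8% with upper quartile scaling (484 higher and 487 lower) and 49.2% with TPM computed without the 5 most abundant noncoding RNAs (272 and 281). At an unadjusted p under 0.05 with no fold required, 1928 of all 13853 genes were higher and 2138 lower. Counts of list members at an unadjusted p are to be read beside these numbers. The adjusted p of the called genes lay between 0.0204 and 0.0493, so none stood far from the threshold. All 130 called genes moved in 1 direction in the 3 replicate pairs, and in 118 of them the 2 groups did not overlap. Both follow in part from calling the genes on these same pairs, so they are no separate support. Among all genes tested, the 24 h libraries lay entirely above the 8 h libraries in 12.5% and entirely below them in 13.6%. The calls rest on the replicate block: without it limma called 0 genes higher and 0 lower, and 103 and 67 passed an unadjusted p with the same fold. Leaving out replicate 1 of the 8 h group left 12 higher and 5 lower calls, and leaving out replicate 1 of the 24 h group 10 and 3. In a fit with the block, a library whose partner of the same number is left out adds nothing to the change. Fits without either library of a number are thus nearly the same fit and no separate checks. Across the genes, the change also moved with base composition. With genes split into 4 equal bins by GC content, its median was 0.07 in the lowest bin and -0.09 in the highest. By replicate pair these medians were 0.09, -0.01 and 0.14 in the lowest bin and -0.13, 0.00 and -0.15 in the highest, so pair 2 did not show it. Medians corrected for GC content and length are given beside some of the gene groups and not all.

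**Figure D1:**
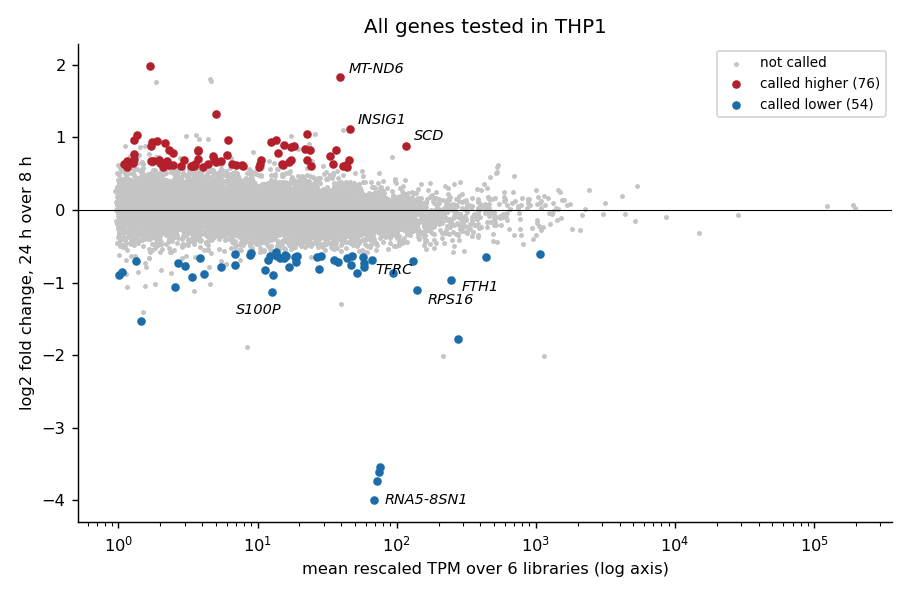
Each point is 1 of the 13853 genes tested in THP1, with its mean rescaled TPM over the 6 libraries on a log axis and its log2 fold change (24 h over 8 h) on the vertical axis. Red and blue points are the 76 genes called higher and the 54 called lower. The 4 lowest points are copies of 5.8S ribosomal RNA.

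Genes of cholesterol synthesis and its regulation were higher at 24 h than at 8 h. Of 31 genes in the list of cholesterol enzymes and SREBP targets, 29 were tested, and 6 of them were called higher and 0 lower. By the adjusted p alone, 14 were higher and 1, *PMVK*, was lower. Their median log2 fold change was 0.32, beside 0.01 over all genes tested, and 0.34 after correction for GC content and length. In the list of fatty acid synthesis and desaturation, 15 of 17 genes were tested, 3 were called higher and 0 lower, 5 were higher and 0 lower by the adjusted p alone, and the median was 0.16. At an unadjusted p under 0.05, 0 of these 15 genes were lower.

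*INSIG1*, which retains the SREBP precursor in the endoplasmic reticulum (ER) and is itself an SREBP target, had the largest change of the list. Its level was 27.3, 22.02 and 36.1 rescaled TPM in the 3 libraries at 8 h and 55.1, 49.2 and 85.3 at 24 h (log2 fold change 1.11 ± 0.062 (SE), adjusted p = 0.0204). The groups did not overlap. The DMSO values were 33.9, 37.2 and 55.97, each between the 8 h and the 24 h value of its replicate number. *INSIG1* was called in all 6 fits that left out 1 library, which are 3 pairs of nearly the same fit. The gene lies at chr7:155297776-155310235, plus strand (GRCh38).

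*SQLE*, the squalene epoxidase, went from 34.5, 33.8 and 34.2 to 53.99, 50.6 and 63.6 (log2 fold change 0.69 ± 0.073 (SE), adjusted p = 0.0214), with almost the same level in the 3 libraries at 8 h. The enzymes *IDI1*, which makes dimethylallyl diphosphate, and *MSMO1*, a sterol methyl oxidase, were also called. *IDI1* was at 19.2, 18.01 and 19.9 and then 27.4, 25.5 and 36.1 (log2 fold change 0.60). *MSMO1* was at 10.03, 10.8 and 13.7 and then 18.1, 13.6 and 24.3 (0.63), and its groups overlapped slightly because replicate 2 at 24 h lay below replicate 3 at 8 h. *STARD4*, a carrier of sterols between membranes, was at 11.8, 12.2 and 13.9 and then 18.9, 17.4 and 26.2 (0.66). The calls for *IDI1*, *MSMO1* and *STARD4* each held in 2 of the 6 fits that left out a library.

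Further enzymes of the pathway passed the adjusted p and stayed under 1.5-fold. They include *HMGCS1* (0.51), which acts early in the pathway, and *LSS* (0.56), *CYP51A1* (0.54) and *DHCR7* (0.53), which act on the sterol ring. *PMVK*, the phosphomevalonate kinase, was the exception, at 31.1, 27.7 and 26.7 at 8 h and 19.8, 20.5 and 21.5 at 24 h (log2 fold change -0.45 ± 0.074 (SE), adjusted p = 0.0287). Every library at 24 h was below every library at 8 h for this gene, while *MVK*, the kinase before it in the pathway, was higher (0.44).

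The 3 called genes of the fatty acid list are desaturases, which put double bonds into fatty acyl chains. *SCD*, which makes oleate from stearate, was at 72.7, 54.3 and 121 at 8 h and 125, 118 and 206 at 24 h (log2 fold change 0.88 ± 0.081 (SE), adjusted p = 0.0214). Each replicate pair rose, but the groups overlapped, since replicate 3 at 8 h was above replicate 2 at 24 h. *FADS2* was at 11.7, 8.25 and 18.4 and then 20.3, 20.4 and 30.4 (log2 fold change 0.88), and *FADS1* at 25.8, 22.7 and 33.2 and then 40.5, 36.3 and 51.9 (0.64), with no overlap in either. *ACLY*, which supplies cytosolic acetyl-CoA, had the lowest change of the list and did not pass the test (0.02, adjusted p = 0.857).

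In 8 of the 9 called lipid genes the DMSO value lay between the 8 h and the 24 h value of the same replicate number in all 3 numbers, as in 32.9% of the 76 genes called higher and in 6.34% of all genes tested. *FADS2* was the exception, with DMSO at 11.3, 15.4 and 28.4. For *SCD* the DMSO values were 76.5, 87.7 and 168, and for *SQLE* 42.9, 44.8 and 47.3. Within a replicate number, DMSO thus sat above the 8 h level and below the 24 h level in these genes.

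**Figure D2:**
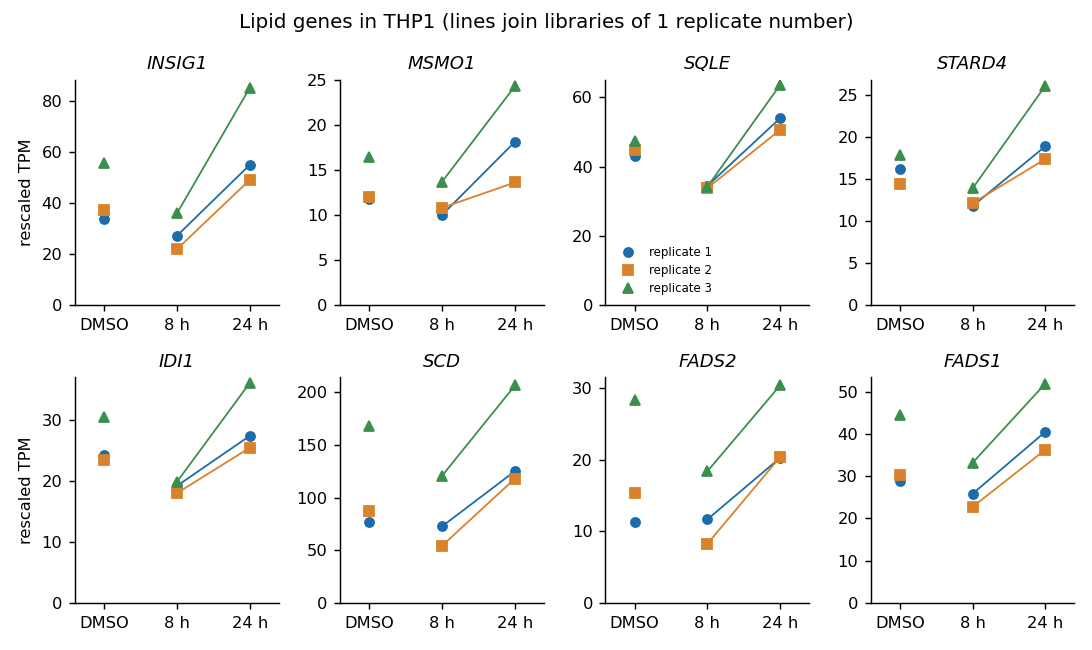
Rescaled TPM (vertical axes, from 0) of 8 called lipid genes in the DMSO, 8 h IACS and 24 h IACS libraries of THP1. Symbols mark the replicate numbers and lines join the 8 h and 24 h libraries of 1 number. Every line rises, and in *SCD* replicate 3 at 8 h (121) is above replicate 2 at 24 h (118).

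Promoters were searched for short motifs, because these genes moved together. RefSeq promoter windows (250 bases before to 50 after the start, GRCh38.p14, the first window of each gene) were matched for 23 of the 29 cholesterol genes tested. The CCAAT box (CCAAT, the NF-Y motif, on either strand) was in 16 of the 23 (69.6%), against 37.2% of the 9587 tested genes with a window and 35.7% of all 27305 windows. The 23 include genes that did not pass the test. Among all called genes with a window, the box was in 11 of 31 called higher (35.5%) and 14 of 39 called lower (35.9%), near the share of tested genes. It thus goes with the list and not with the direction of change. In the fatty acid list it was in 6 of 14 (42.9%). The E-box CACGTG was in 5 of the 23 (21.7%), against 10.3% of tested genes and 7.4% of all windows. It was in 3.2% of the genes called higher and 20.5% of those called lower. A sterol response element core written as TCACNCCAC was in 1 of the 23, *SREBF2* (4.3%, against 1.1% of all windows), which says only that these letters are rare in such short windows. The bases of the window that lie before both the RefSeq start and the GENCODE release 44 gene are printed here for 3 of the 4 called lipid genes whose windows hold a CCAAT box, since the box is the motif most frequent in the list (capitals mark the box or its reverse complement). They lie at chr7:155297628-155297775, plus strand, for *INSIG1*, chr10:100346983-100347232, plus strand, for *SCD* and chr5:111512591-111512785, minus strand, for *STARD4*, each read along the gene's own strand.
INSIG1: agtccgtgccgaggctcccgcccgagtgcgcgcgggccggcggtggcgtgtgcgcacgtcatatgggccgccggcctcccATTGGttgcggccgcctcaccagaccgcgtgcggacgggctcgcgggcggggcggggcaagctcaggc
SCD: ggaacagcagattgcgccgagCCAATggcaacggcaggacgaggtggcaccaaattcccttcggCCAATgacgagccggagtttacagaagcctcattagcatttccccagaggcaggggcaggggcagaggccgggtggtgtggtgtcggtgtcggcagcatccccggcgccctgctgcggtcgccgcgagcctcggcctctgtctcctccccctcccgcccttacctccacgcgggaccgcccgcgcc
STARD4: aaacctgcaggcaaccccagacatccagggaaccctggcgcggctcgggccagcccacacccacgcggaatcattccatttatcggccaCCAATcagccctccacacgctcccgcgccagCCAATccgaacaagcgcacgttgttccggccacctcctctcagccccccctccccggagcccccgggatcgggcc

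The GENCODE genes of *INSIG1* and *STARD4* begin before the RefSeq start, so these sequences (148 and 195 bases) are shorter than that of *SCD* (250). The *INSIG1* sequence holds 1 match, on the reverse strand, and those of *SCD* and *STARD4* hold 2 each, on the forward strand. A match is a description of the letters and shows no binding.

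The transcripts of the main iron importer and of the ferritin heavy chain were lower at 24 h. Of 21 iron genes 17 were tested, 2 were called lower and 1 higher, and the median was -0.02. *TFRC*, the transferrin receptor that imports iron, was at 71.7, 66.4 and 82.2 rescaled TPM at 8 h and 44.2, 37.9 and 49.8 at 24 h (log2 fold change -0.73 ± 0.053 (SE), adjusted p = 0.0204). The groups were far apart, and the DMSO values of 78.9, 74.5 and 86.5 overlapped those at 8 h. The gene lies at chr3:196012511-196082153, minus strand (GRCh38). *FTH1*, the ferritin heavy chain that stores iron, was at 343, 279 and 352 and then 154, 162 and 178 (log2 fold change -0.97 ± 0.081 (SE), adjusted p = 0.0204). Its 24 h libraries were also all below the DMSO libraries (263, 287 and 319). *FTH1* has many processed pseudogenes that can share its reads, so its value is uncertain. *STEAP3*, the endosomal ferrireductase, passed the adjusted p alone (-0.47, adjusted p = 0.0214). *CYBRD1*, a ferrireductase of the cell surface, was at 7.08, 6.67 and 9.86 and then 12.1, 10.98 and 16.9 (log2 fold change 0.69 ± 0.059 (SE), adjusted p = 0.0204). *UROS* (-0.31), which acts in heme synthesis, was lower by the adjusted p, among 13 heme synthesis genes with 0 called. At an unadjusted p under 0.05, 1 of the 13 was higher and 4 lower.

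*TFRC* was also the 1 gene of 14131 whose change differed between the cell lines (0.00708% of the genes tested), in a fit of 12 libraries with an interaction of time and cell line. In that fit its log2 fold change was -0.72 in THP1 and 0.14 in MV4-11 (difference -0.87, adjusted p = 0.0474). In MV4-11 it was 78.3, 73.6 and 77.7 at 8 h and 86.4, 83.3 and 84.2 at 24 h, each replicate higher at 24 h. For *FTH1* the difference was -0.96 with an adjusted p of 0.102, and in MV4-11 it was 239, 249.4 and 203 and then 236, 274 and 188. *INSIG1* changed by 0.33 in MV4-11 (difference 0.79, adjusted p = 0.112), and *SCD* by 0.35. The median of the cholesterol list in MV4-11 was 0.23, and a difference between the cell lines was not shown for any gene but *TFRC*. The *TFRC* difference was lost without the replicate block and with the TPM as deposited, where limma called 0 genes (210 and 259 at an unadjusted p with the same fold). Leaving out any 1 of the 12 libraries gave an adjusted p of 0.0687 to 0.28, with a difference of -0.83 to -0.89. Here too, fits without either library of a replicate number in a cell line are nearly the same fit.

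**Figure D3:**
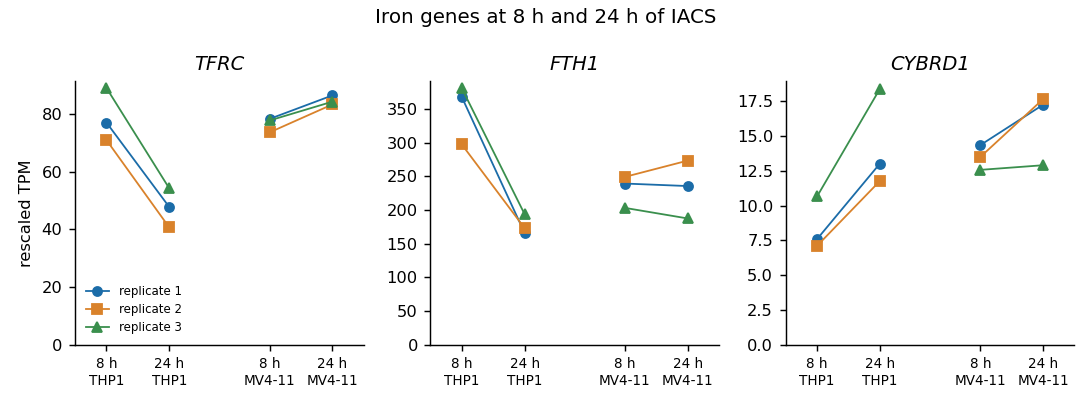
Rescaled TPM (vertical axes, from 0; 12 libraries rescaled together) of *TFRC*, *FTH1* and *CYBRD1* at 8 h and 24 h of IACS in THP1 and MV4-11. Lines join libraries of 1 replicate number. All 3 *TFRC* lines fall in THP1 and all 3 rise in MV4-11.

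The ISR list gave 1 call between 8 h and 24 h. Of 29 genes in the list of ATF4 and CHOP targets and regulators, 25 were tested, 1 was called higher and 0 lower, 3 were higher and 0 lower by the adjusted p alone (12 and 2 at an unadjusted p), and the median was 0.14. After correction for GC content and length the median was 0.20, and 6 were higher and 0 lower by the adjusted p. *ATF4* itself was at 199, 181 and 156 at 8 h and 233, 215 and 160.5 at 24 h, beside 128, 124 and 124 in DMSO (log2 fold change 0.17 ± 0.065 (SE), adjusted p = 0.15). Its groups overlapped at a level above all DMSO libraries. With GC content and length corrected it passed the adjusted p (0.26, adjusted p = 0.0419). *DDIT3*, which encodes CHOP, was at 56.4, 59.4 and 35.04 and then 45.7, 37.9 and 31.4, with a lower value at 24 h in each pair (log2 fold change -0.36 ± 0.095 (SE), adjusted p = 0.0696). *CHAC1*, which degrades glutathione, was at 2.56, 3.79 and 1.98 and then 3.68, 3.18 and 1.60, against 0.498, 0.528 and 0.869 in DMSO (log2 fold change 0.00, adjusted p = 0.997), and the pairs went in different directions. *TRIB3*, a pseudokinase that restrains ATF4, was at 34.98, 32.8 and 31.8 and then 42.8, 35.8 and 35.5. Its 24 h libraries were all above its 8 h libraries, yet the change did not pass the test (log2 fold change 0.19 ± 0.057 (SE), adjusted p = 0.0979).

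The 3 genes of this list past the adjusted p were *ALDH1L2*, *ASNS* and *XBP1*. In the list of serine and one-carbon metabolism, which shares *ALDH1L2*, 2 of 16 genes were higher and 2 lower by the adjusted p, with a median of 0.02. *ALDH1L2*, the mitochondrial formyltetrahydrofolate dehydrogenase, was called: it was at 11.5, 12.6 and 11.2 at 8 h and 20.4, 20.8 and 15.1 at 24 h (log2 fold change 0.62 ± 0.085 (SE), adjusted p = 0.0235), with DMSO at 9.24, 8.80 and 10.4. Its call held in 2 of the 6 fits that left out a library. *ASNS*, the asparagine synthetase, was at 3.38, 4.37 and 3.41 and then 7.07, 5.59 and 5.10, beside 1.54, 0.922 and 2.299 in DMSO. Its adjusted p was just under the threshold and its change under 1.5-fold (log2 fold change 0.55 ± 0.12 (SE), adjusted p = 0.0494), and with the correction it no longer passed (adjusted p = 0.0548). *PHGDH*, the first enzyme of serine synthesis (0.46), and *ASS1*, which joins citrulline and aspartate (0.53), passed the adjusted p. The folate enzymes *MTHFD1*, of the cytosol (-0.37), and *MTHFD1L*, of mitochondria (-0.24), were lower. Among amino acid transporters *SLC38A1* (0.38) and *SLC38A2* (0.32) were higher by the adjusted p and *SLC3A2* (-0.27) was lower. In MV4-11 *ALDH1L2* changed by -0.29 and *ASNS* by -0.34, and neither difference between the cell lines passed the test (adjusted p = 0.102 and 0.127).

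The α-arrestins that MondoA drives were higher at 24 h than at 8 h, at levels below DMSO at both times. *TXNIP*, which restrains glucose uptake, was at 30.01, 27.1 and 39.5 at 8 h and 40.4, 36.1 and 56.1 at 24 h, and at 158, 161 and 239.6 in DMSO. The change from 8 h to 24 h passed the adjusted p and stayed under 1.5-fold (log2 fold change 0.44 ± 0.052 (SE), adjusted p = 0.0214), and both IACS groups were far below DMSO. *ARRDC4* followed the same order, with 5.999, 5.34 and 5.35, then 8.14, 7.09 and 6.89, and 15.1, 13.5 and 15.5 in DMSO (log2 fold change 0.35 ± 0.065 (SE), adjusted p = 0.0341). *ARRDC3*, of the same family, was at 34.1, 31.8 and 28.5 and then 28.1, 25.8 and 25.4, with a change of -0.24 that did not pass (adjusted p = 0.0537). With the correction it did (-0.32, adjusted p = 0.0234).

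**Figure D4:**
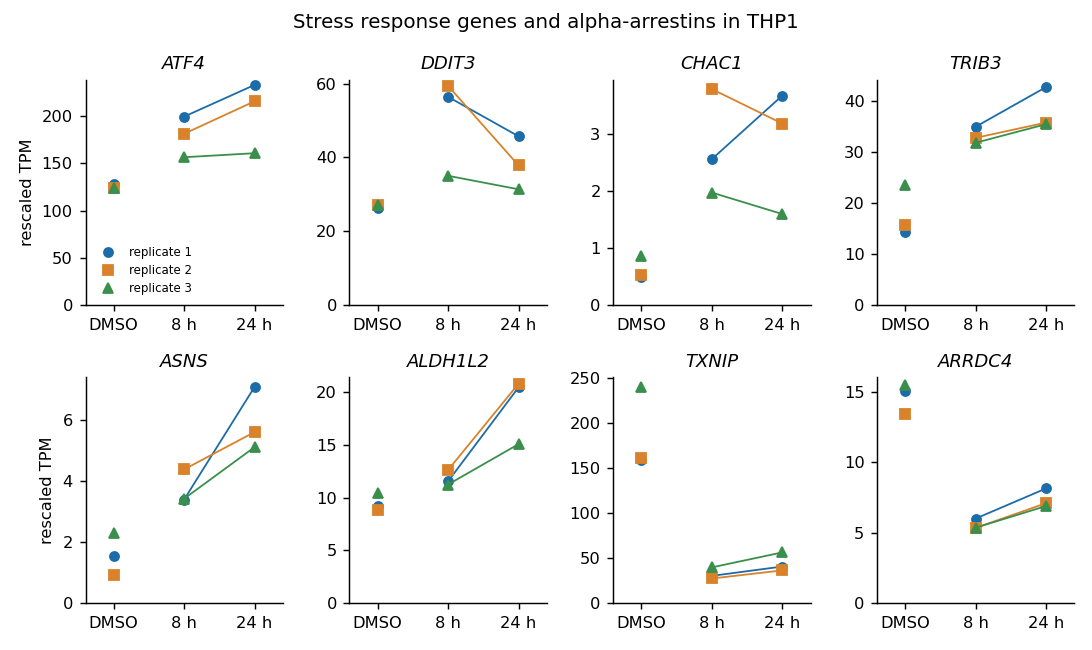
Rescaled TPM (vertical axes, from 0) of 6 genes of the integrated stress response and 2 α-arrestins in THP1, with symbols for the replicate numbers and lines joining 8 h and 24 h of 1 number. *ATF4*, *DDIT3*, *CHAC1* and *TRIB3* stay above DMSO at both times, *ALDH1L2* rises after 8 h, and *TXNIP* stays far below DMSO.

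A part of the nuclear-encoded transcripts of the respiratory chain was lower at 24 h, by small amounts. None of the 37 nuclear complex I subunits was called in either direction, 13 were lower and 0 higher by the adjusted p alone (21 and 0 at an unadjusted p), and the median was -0.21, both before and after correction for GC content and length. *NDUFS6* had the lowest change, at 77.2, 63.1 and 62.4 at 8 h and 45.3, 51.7 and 39.97 at 24 h (log2 fold change -0.56 ± 0.094 (SE), adjusted p = 0.0297), and *NDUFA1* the highest (0.08, adjusted p = 0.538). For the nuclear subunits of complexes III to V, 13 of 34 were lower and 0 higher by the adjusted p, with a median of -0.22. *ATP5MC1*, which encodes the ring subunit of ATP synthase, was the 1 called, at 55.6, 55.4 and 50.9 and then 37.3, 33.02 and 31.6 (log2 fold change -0.65 ± 0.056 (SE), adjusted p = 0.0204). At the other end *COX6C* did not pass (0.22). In the TCA cycle 8 of 24 genes were lower and 0 higher, with a median of -0.20. Mitochondrial chaperones and proteases had 6 of 17 lower, among them *PHB* (-0.49) and *HSPE1* (-0.49), with a median of -0.09. The DMSO values of *NDUFS6* (73.9, 69.8 and 65.04) and *ATP5MC1* (52.4, 47.1 and 60.4) were near those at 8 h. With TPM computed without the 5 most abundant noncoding RNAs, 7 genes of complex I, 7 of complexes III to V and 3 of the TCA cycle were lower by the adjusted p, and 0 higher. In MV4-11 the medians of the complex I and complex III to V lists were -0.17 and -0.18.

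The mRNAs of ER folding were lower as well. Of 24 ER chaperones and degradation genes, 2 were called lower, 8 were lower and 0 higher by the adjusted p, and the median was -0.20 (-0.14 after correction for GC content and length). *SDF2L1*, an ER chaperone cofactor, was at 51.8, 43 and 36.2 at 8 h and 27.97, 28.7 and 23.3 at 24 h (log2 fold change -0.68 ± 0.072 (SE), adjusted p = 0.0214), below its DMSO level of 54.2, 59.7 and 49.7. *CRELD2*, an ER-resident stress protein, was at 17.2, 14.8 and 13.3 and then 9.41, 10.4 and 8.30 (-0.63). *HSPA5*, the main ER chaperone, passed the adjusted p (-0.38), with 198, 188 and 149.8 and then 141, 146 and 123. *EDEM1* had the highest change of the list and did not pass (0.11). *XBP1*, a transcription factor of ER stress, went the other way (0.32, adjusted p = 0.0254).

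Lists related to growth also had more lower than higher members past the adjusted p. In the MYC and ribosome biogenesis list 10 of 28 genes were lower and 0 higher by the adjusted p, 0 were called (17 lower and 0 higher at an unadjusted p), and the median was -0.22 (-0.20 corrected). Without the 5 most abundant noncoding RNAs, 6 genes of this list were lower and 0 higher by the adjusted p. *RRS1*, an assembly factor of the large ribosomal subunit, had the lowest change, at 43.2, 40.5 and 35.1 and then 28.6, 31.3 and 23.02 (-0.51). *NME1*, a nucleoside diphosphate kinase, was at 80.8, 78.7 and 62.3 and then 54.9, 46.2 and 45.7 (-0.58), and 6 of 22 genes of nucleotide and asparagine synthesis were lower while *ASS1* and *ASNS* were higher. Glycolysis had 6 of 26 genes lower by the adjusted p, *ENO1* (-0.45), *ALDOA* (-0.43) and *LDHA* (-0.43) among them. *PFKFB4*, which sets fructose 2,6-bisphosphate, was its 1 called gene and was higher, at 3.51, 3.40 and 3.47 and then 6.49, 5.87 and 6.47 (log2 fold change 0.71 ± 0.073 (SE), adjusted p = 0.0214), with DMSO at 3.37, 3.21 and 3.43. NRF2 targets and glutathione genes had 6 of 23 lower by the adjusted p.

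Cell cycle lists had few members past the test. Of 36 DNA replication genes 2 were lower by the adjusted p, *TK1* (-0.38) and *CDC45* (-0.31, adjusted p = 0.0579 with the correction), 0 were higher and 18 lower at an unadjusted p, and the median was -0.15 (-0.10 corrected). Of 31 mitosis genes 3 were higher, with *ASPM* at 0.39, 12 were higher and 0 lower at an unadjusted p, and the median was 0.13 (0.12 corrected). *CDKN1A*, the p53-induced inhibitor of cyclin-dependent kinases, was called higher, at 6.40, 4.95 and 6.13 and then 8.01, 8.57 and 12.3 (log2 fold change 0.62 ± 0.12 (SE), adjusted p = 0.0367). It was called in 0 of the 6 fits that left out a library. In the list of 46 replication-dependent histones 0 passed the adjusted p, and 0 were higher and 4 lower at an unadjusted p. Over all 13853 genes, 1928 were higher and 2138 lower at that unadjusted p.

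**Figure D5:**
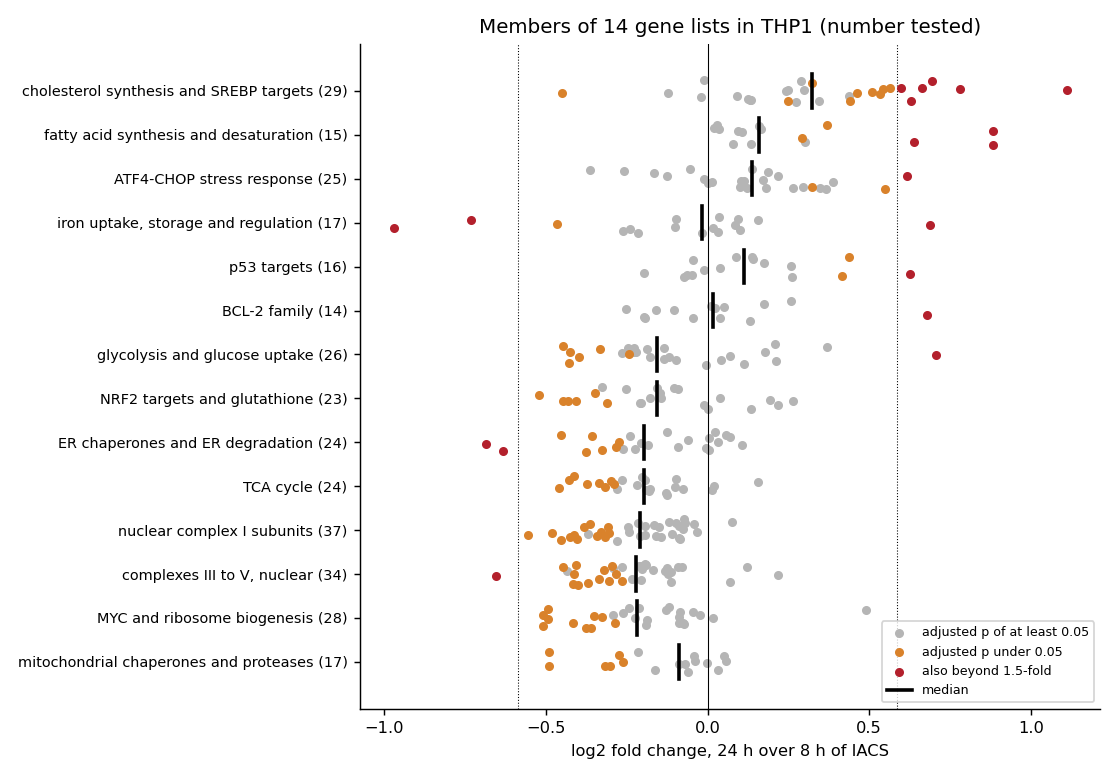
Log2 fold changes (24 h over 8 h, horizontal axis) of the tested members of 14 gene lists in THP1, 1 point per gene, with the number tested beside each list. Grey points did not pass the test, orange points had an adjusted p under 0.05, and red points were also beyond 1.5-fold (dotted lines). Black bars are medians, from 0.32 for the cholesterol list to -0.22 for complexes III to V.

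In the BCL-2 family, which controls apoptosis at mitochondria, 1 of 14 genes was called. *BMF*, a BH3-only protein, rose from 1.01, 0.671 and 1.78 to 1.92, 2.03 and 3.32 rescaled TPM (log2 fold change 0.68 ± 0.12 (SE), adjusted p = 0.0302). These levels are low, with 40 to 215 reads per library, and the call was lost in each of the 6 fits that left out a library. *MCL1* was at 128, 112 and 118 and then 135, 125 and 132 (log2 fold change 0.13 ± 0.054 (SE), adjusted p = 0.168), and *BCL2* at 55.9, 58.5 and 48.1 and then 66.4, 62.9 and 54.6 (log2 fold change 0.18 ± 0.054 (SE), adjusted p = 0.0993). Neither change passed the test, and the groups of both genes overlapped. *BAX* had the lowest change of the family among members at 5 TPM or more (-0.20, adjusted p = 0.0948).

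A few genes of mature myeloid cells were lower at 24 h. Of 27 genes tested in the list of monocyte and granulocyte differentiation, 1 was called lower and 0 higher, and by the adjusted p 4 were lower and 1 higher. *VCAN*, a matrix proteoglycan of classical monocytes, was at 3.04, 4.03 and 4.22 and then 1.06, 1.001 and 1.83 (log2 fold change -1.06 ± 0.12 (SE), adjusted p = 0.0214). *ELANE*, the neutrophil elastase (-0.47), and the integrin *ITGAM* (-0.37) passed the adjusted p, while the integrin *ITGAX* was higher (0.33). *CEBPE*, a transcription factor of granulocyte maturation, was called higher at low levels, with 2.56, 1.65 and 3.19 and then 3.51, 3.59 and 5.73 (0.61), and this call held in 0 of the 6 fits that left out a library. *DNASE2*, a lysosomal nuclease and a gene of the CRISPR library that the study built from these RNA data, was at 23.9, 25.8 and 21.3 and then 14.7, 15.3 and 14.4 (-0.64).

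Interferon-induced genes gave 2 calls among 26 tested. *IFI6* was at 84.4, 65.2 and 97.4 at 8 h and 45.2, 41.4 and 66.9 at 24 h (log2 fold change -0.69 ± 0.077 (SE), adjusted p = 0.0214). Each pair fell, but replicate 3 at 24 h lay above replicate 2 at 8 h. *IFI27* was at 1.59, 1.74 and 2.35 and then 0.701, 0.834 and 0.791 (-0.70), close to the filter on low values, and its call held in 0 of the 6 fits without a library. *STAT2* was higher by the adjusted p (0.28) and the median of the list was -0.06.

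Further genes called lower were among those with the largest changes at 5 TPM or more. *S100P*, a calcium-binding protein, was at 16.4, 13.98 and 22.99 and then 8.87, 5.10 and 8.92 (log2 fold change -1.13 ± 0.11 (SE), adjusted p = 0.0214) and was called in all 6 fits that left out a library. *LST1*, a myeloid membrane protein, was at 116, 118 and 132 and then 63.8, 58.03 and 79.5 (-0.86). *LGALS3*, which encodes galectin-3, was at 13.1, 13.7 and 16.99 and then 7.27, 6.12 and 10.5 (-0.82), and *GAS6*, the ligand of TAM receptor kinases, at 32.3, 28.5 and 45.02 and then 16.2, 16.1 and 27.2 (-0.82). In these genes all 24 h libraries were below all 8 h libraries. *CD320*, the receptor for cobalamin-loaded transcobalamin, was at 17.9, 19.9 and 13.5 and then 9.73, 9.19 and 7.23 (-0.89). *CHCHD10*, a protein of the mitochondrial intermembrane space, was at 68.4, 64.3 and 68.1 and then 35.1, 41.7 and 31.96 (log2 fold change -0.87 ± 0.092 (SE), adjusted p = 0.0214), and at 61.8, 64.95 and 70.1 in DMSO. Its 24 h values were thus below every value of both other groups.

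Among the genes called higher, *CSPG4*, a membrane proteoglycan used as a marker of *KMT2A*-rearranged leukemia, was at 5.35, 3.35 and 3.03 and then 8.91, 8.41 and 7.98 (log2 fold change 0.97 ± 0.11 (SE), adjusted p = 0.0214), beside 4.46, 6.26 and 3.69 in DMSO. *DNAJC5B*, a J-domain protein, was at 11.1, 9.09 and 16.02 and then 19.2, 19.1 and 29.7 (0.86), and its DMSO values of 8.79, 9.01 and 13.5 were below both groups in each replicate number. Both were called in all 6 fits that left out a library. Of the 76 genes called higher 38 are annotated as protein coding in GENCODE release 44, against 44 of the 54 called lower. Symbols without a match in that release are not counted as protein coding. The share over all genes tested is not given here, so neither count can be read as high or low. The 3 loci *AC015813.2*, *AL606500.1* and *AL109914.1*, which carry only clone-based names, changed by 0.96, 0.89 and 1.32, the last from as few as 3 reads in a library.

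Several short noncoding RNAs were among the calls. The 4 copies of 5.8S ribosomal RNA (*RNA5-8SN1*, *RNA5-8SN2*, *RNA5-8SN3* and *RF00002_5*) had the lowest changes of all genes tested. *RNA5-8SN1* was at 172, 105 and 100.5 at 8 h and 7.13, 25.7 and 1.10 at 24 h (log2 fold change -4.00 ± 0.61 (SE), adjusted p = 0.0251), and at 110.4, 129 and 231 in DMSO. Replicate 2 was the highest of the 24 h group. The copies are near-identical and share reads, so they count as 1 observation. *RPS16*, the 1 called gene of 75 cytosolic ribosomal protein genes, was also highest in replicate 2 among the 24 h libraries, with 189, 159.6 and 217 and then 67.8, 128 and 75.6 (log2 fold change -1.09 ± 0.23 (SE), adjusted p = 0.0438), and it has pseudogenes that can share its reads. It was called in 2 of the 6 fits that left out a library, and its adjusted p was 0.0534 with GC content and length corrected. *MT-RNR2*, the mitochondrial 16S rRNA, also had its highest 24 h value in replicate 2 and did not pass the test (log2 fold change -2.01 ± 0.51 (SE), adjusted p = 0.0652). Replicate 2 of the 24 h group thus stood apart from the other 2 libraries in the ribosomal RNAs, and its part in the other results was not tested beyond leaving it out, which gave 87 higher and 105 lower calls.

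*MT-ND6*, the 1 mRNA encoded on the light strand of mitochondrial DNA, was at 14.6, 13.1 and 16.1 at 8 h and 30.6, 116 and 44.5 at 24 h (log2 fold change 1.83 ± 0.36 (SE), adjusted p = 0.0378). With GC content and length corrected its adjusted p was 0.0527, and the call was lost. Replicate 2 was again the highest. The DMSO values of 34.1, 44.9 and 23.8 overlapped the 24 h values, and whether the counting used the strand is not given in the sources used here, so reads of the opposite strand cannot be told apart. It was the 1 gene called among 15 mitochondrially encoded genes, whose median was 0.18. By replicate pair the median of these genes was -0.12, 1.17 and -0.29, so only pair 2 was above 0. All symbols that start with MT- together held 2.34% of the TPM in replicate 2 at 24 h, against 1.22% and 1.08% in the other 24 h libraries. Small nucleolar and spliceosomal RNAs were among the genes called higher. *SNORA74A* was at 13.7, 11.1 and 21.7 and then 22.9, 21.8 and 40.8 (log2 fold change 0.83 ± 0.064 (SE), adjusted p = 0.0204), *SNORA22* at 28.5, 23.9 and 25.9 and then 46.1, 37.3 and 59.6, and *RNU5F-1*, a U5 snRNA, at 21.8, 13.3 and 15.5 and then 33.4, 23.8 and 34.5. Taken by symbol after their values were seen, 43 of 59 *SNORA* genes had a change above 0, with 4 called and a median of 0.19, beside 7139 of all 13853 genes. The same held for 14 of 22 *SNORD* genes, with 1 called and a median of 0.17, for 19 of 21 *RNU* genes, with 3 called and a median of 0.45, and for 9 of 16 *SCARNA* genes, with 0 called and a median of 0.03. They are short, and *SNORA22* rested on 35 to 95 reads per library and *RNU5F-1* on 17 to 48.

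Just inside the fold threshold were *MRPL4* (-0.58), *ARMH1* (0.59) and *METTL7A* (0.59), and just outside it *NME1* (-0.58), *GPR18* (-0.58) and *HLX-AS1* (0.58). Their values differ by less than their standard errors, so a count of called genes turns on small differences there. In 4 further lists 0 genes passed the adjusted p by limma: HIF targets (18 tested, 5 higher and 0 lower at an unadjusted p), mTORC1 inhibitors and components (21 tested, 3 and 6), immediate early genes (19 tested, 4 and 3), and cytokines and NF-κB targets (15 tested, 3 and 3).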

How the data were processed

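RNA was measured in 6 THP1 libraries (3 at 8 h and 3 at 24 h of 50 nM IACS), beside 3 DMSO libraries shown for their level only and 6 IACS libraries of MV4-11 for 1 test. Per the paper's methods, the authors made TruSeq libraries from total RNA, sequenced paired-end reads on a NovaSeq, trimmed them by quality and length, and aligned them to GRCh38 (hg38) in CLC Genomics Workbench. The annotation release and strand setting are not given in the sources used here. The authors deposited TPM for 45372 gene symbols. TPM fix the sum of a library, and in these 6 libraries 5 abundant noncoding RNAs held 48.1% to 60.1% of it, so the libraries were rescaled by the median of ratios (size factors 0.858 to 1.20).

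Genes that averaged 1 TPM or more were fitted by limma 3.58.1 (R 4.3.3) on log2(rescaled TPM + 1) with the replicate number as a block and a variance trend, two-sided, with Benjamini-Hochberg adjustment over all genes tested. The design took the replicate number as the block, although the labels give only the number and state no pairing. Libraries with the same number deviated together from their group means (r across genes 0.19, 0.304 and 0.345 for replicates 1, 2 and 3). Between different numbers r lay between -0.402 and 0.134. The 0.134, of replicate 2 at 8 h with replicate 1 at 24 h, is close to the 0.19 of replicate 1. The difference between cell lines was an interaction in 1 fit of 12 libraries. Low values rose in whole-read steps (tolerance 0.02 reads) for 13923 of 13928 genes, which gave the depth. The scripts were checked on simulated data.

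The 6 libraries were taken by their labels. The comparison and the 46 gene lists were chosen with earlier results of these data known, so lists are given by counts and medians only. Genes are named where they are called members of a list, the ends of a list, the 12 largest calls per direction at 5 TPM or more without overlap, the genes nearest the fold threshold, or 10 genes set by name. List members past the adjusted p alone, and the small RNA and ribosomal copies, were chosen after seeing their values. Coordinates come from GENCODE release 44, which holds 88.1% of the symbols tested, and the GC and length correction was applied to these. A few genes that these rules name are not reported here.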

Additional observations from a re-analysis of the deposited data

Results flagged for a closer look

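*TFRC* was flagged because its change from 8 h to 24 h differed between the cell lines by a test of the difference itself (THP1 minus MV4-11, -0.87 on the log2 scale, limma adjusted p = 0.0474). Its level was lower at 24 h in 3 of 3 replicate pairs in THP1 and higher in 3 of 3 in MV4-11. With 3 libraries in each group, single libraries far from the rest of their group were not tested for.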

How the results depend on the processing

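The numbers of genes called higher and lower (76 and 54) depended on the fit. Without the replicate block limma called 0 and 0 (103 and 67 at an unadjusted p with the same fold). With the TPM as deposited and no block it called 2 and 7, and with no filter on low values 0 and 0 (118 and 86 unadjusted). With no variance trend it called 0 and 0 (112 and 72 unadjusted). A mean of at least 10 TPM gave 38 and 38, unadjusted p 116 and 75, and limma's voom on the recovered reads, added after seeing the data, 160 and 92. Leaving out replicate 1 of the 8 h group with the block gave 12 higher and 5 lower calls, and replicate 1 of the 24 h group 10 and 3. Fits with the block that leave out either library of a replicate number are nearly the same fit. Leaving out any other library gave 82 to 128 higher and 68 to 105 lower calls, with 103 lower without replicate 2 of the 8 h group, 105 without replicate 2 of the 24 h group and 128 higher without its replicate 3. Without the block, leaving out 1 library gave 0 to 7 higher and 0 to 20 lower calls, the 7 and 20 without replicate 2 of the 24 h group and 6 and 8 without its replicate 3. The remaining settings kept both counts within 1.5 times (78 to 112 higher, 41 to 75 lower): TPM as deposited, upper quartile scaling, TPM without 5 noncoding RNAs, a pseudocount of 0.1, all 9 THP1 libraries, and the block with GC and length correction, also added after seeing the data. The 1 gene that differed between the cell lines became 0 without the block and with the TPM as deposited, 4 without a variance trend and 274 by unadjusted p, and leaving out 1 library gave 0 to 1, with *TFRC* called in 0 of these 12 fits. Of the genes named, *CHAC1*, at 0.00, was below 0 with a pseudocount of 0.1 (-0.0094) and with no filter (-0.015), and -0.197 and -0.195 without replicate 1 of the 8 h or the 24 h group. Without the block it was -0.028 and -0.158 without replicate 1 or 3 of the 8 h group, and -0.167 and -0.086 without replicate 1 or 2 of the 24 h group. *ACLY* was below 0 with no filter (-0.0028) and, without replicate 2 of the 8 h or the 24 h group, -0.012 and -0.0081. Without the block it was -0.053 without replicate 2 of the 8 h group and -0.037 without replicate 3 of the 24 h group. No other named gene changed direction in any of these fits. Over all of them the median of the cholesterol list stayed between 0.25 and 0.47 and that of nuclear complex I between -0.25 and -0.15. The cause of the lost calls was not tested. With 2 residual degrees of freedom, changes near 1.5-fold are at the limit of this design.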
